A study of Mus musculus with 9 samples.

Results

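The 40 genes described here encode regulators of pre-mRNA splicing in embryonic mouse cortex. They were chosen by name, and all 40 were found among the 39184 genes listed in both deposited comparisons. They fall into 6 role groups: 11 SR proteins (Srsf1 to Srsf7, Srsf9 to Srsf11 and Tra2a), 2 SR protein kinases, 11 regulators linked to neuronal exons, 7 CELF and MBNL proteins, 4 ELAVL proteins and 5 hnRNPs. RNA was sequenced from E16.5 cortex of mice that differ at HAR1984, a human accelerated region that the series title treats as an enhancer. Control embryos carried the mouse element on both alleles, Mm-HAR1984 (Mm/Mm). Knock-in embryos, Mm-HAR1984 (Hs/Mm), carried 1 human and 1 mouse allele, and deletion embryos, Mm-HAR1984 (del/del), lacked the element on both. The labels give CRISPR for both altered genotypes and name no strain, founder line or number of embryos per library. Each genotype had 3 libraries, described as biological replicates, and the tissue label of deletion replicate 3 reads E16.6 instead of E16.5.

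Splicing regulators decide which exons of a primary transcript are joined. SR proteins bind exonic enhancers through RNA recognition motifs and recruit the spliceosome through arginine- and serine-rich domains, whose phosphorylation by CLK kinases sets their activity, while hnRNPs often act against them from silencer elements. As progenitors become neurons, PTBP1 gives way to PTBP2, and NOVA, RBFOX, CELF, MBNL, ELAVL and SRRM4 proteins install the exon choices of neurons. Many of these genes control their own transcripts by including poison exons that send the mRNA to nonsense-mediated decay.

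The values of single libraries are not reported here, because the deposited columns carrying library names held no library measurement. Levels are therefore given as a fitted mean normalised count for each genotype ± SE (n = 3 libraries), and per kb of exon where genes are compared. The means were computed from the deposited mean over all libraries and both deposited effects. Their SE rests on a fitted spread shared by all genotypes and solved from the deposited SEs. It is not a spread measured within each genotype. Effects are log2 fold changes against control (SE in parentheses), taken as the deposited Wald statistic times its SE. The adjusted p is that of the Wald test with Benjamini-Hochberg adjustment over all genes tested, and a gene was called where it was below 0.05. Both comparisons share the 3 control libraries, so their values are set side by side without a test of their likeness.

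Promoter windows are printed for the 1 regulator that passed the test, for those with the next 2 smallest p-values in the deletion, and for Celf5, which had the smallest knock-in p after Nova1 and Celf4. They run from 250 bases before to 50 bases after the 5′-most RefSeq start of the gene, 5′ to 3′ on the gene's strand, in GRCm38.p6. Only this start was used for each gene, also in the shares over all promoters below. Whether it is the start used in cortex was not tested. Nova1 lies at chr12:46818718-46819017 on the minus strand, Elavl4 at chr4:110351862-110352161 on the minus strand, Srsf10 at chr4:135855821-135856120 on the plus strand and Celf5 at chr10:81482650-81482949 on the minus strand. Capitals mark matches, on either strand, to CCAAT, the GC box GGGCGG or any of the other 5 motifs searched.
Nova1: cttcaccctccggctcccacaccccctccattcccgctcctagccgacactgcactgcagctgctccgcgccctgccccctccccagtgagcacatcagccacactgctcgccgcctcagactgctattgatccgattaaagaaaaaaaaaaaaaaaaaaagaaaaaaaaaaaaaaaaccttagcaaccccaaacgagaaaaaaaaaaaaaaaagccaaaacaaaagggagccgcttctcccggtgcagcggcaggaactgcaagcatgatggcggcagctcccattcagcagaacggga
Elavl4: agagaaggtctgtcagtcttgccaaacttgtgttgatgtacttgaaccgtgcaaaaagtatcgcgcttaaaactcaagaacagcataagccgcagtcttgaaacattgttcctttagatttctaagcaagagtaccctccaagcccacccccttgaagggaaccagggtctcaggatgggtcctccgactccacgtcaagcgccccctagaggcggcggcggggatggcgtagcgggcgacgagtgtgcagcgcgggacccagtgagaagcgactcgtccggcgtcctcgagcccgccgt
Srsf10: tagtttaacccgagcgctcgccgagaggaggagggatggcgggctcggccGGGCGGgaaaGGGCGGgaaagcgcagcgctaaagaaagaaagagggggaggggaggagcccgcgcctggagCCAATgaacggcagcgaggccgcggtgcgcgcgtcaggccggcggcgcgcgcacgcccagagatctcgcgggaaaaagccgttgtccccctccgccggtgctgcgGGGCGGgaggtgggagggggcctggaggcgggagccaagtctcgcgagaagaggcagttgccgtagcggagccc
Celf5: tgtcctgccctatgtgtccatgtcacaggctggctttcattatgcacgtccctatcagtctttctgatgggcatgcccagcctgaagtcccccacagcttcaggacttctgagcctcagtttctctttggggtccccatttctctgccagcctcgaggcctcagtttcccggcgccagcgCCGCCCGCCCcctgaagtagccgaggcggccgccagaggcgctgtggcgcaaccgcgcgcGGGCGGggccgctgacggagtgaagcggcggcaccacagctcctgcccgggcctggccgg
The Nova1 and Elavl4 windows held 0 matches. Srsf10 held 1 CCAAT and 3 GC boxes, and Celf5 held 3 GC boxes, of which the first pair lies on the opposite strand and shares bases. RefSeq windows were matched for 35 of the 40 regulators, all but Clk1, Rbfox2, Khdrbs1, Khdrbs3 and Celf4, and compared with 27025 promoters of mouse genes. The GC box was in 21 of the 35 (60.0%) and in 35.9% of all promoters, and CCAAT was in 17 of the 35 (48.6%) and in 38.0% of all. TATAAA was in 6 of the 35 and in 14.2% of all promoters, the ETS site CCGGAAG in 4 and 9.14%, the E-box CACGTG in 2 and 7.24%, TGACGTCA in 2 and 1.85%, and TAATTA in 2 and 5.32%. The regulators' windows had a median GC content of 64.3%, against 52.7% for all promoters, and the GC box consists of G and C alone. A match of letters is a description and shows no binding.

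Levels of the regulators were high and spanned a wide range. The mean normalised count over all libraries ran from 1718 for Mbnl1 to 43868 for Hnrnpa2b1, so low counts limited none of them. Per kb of exon, control levels were highest for Hnrnpa2b1 (6709), Srsf2 (5249), Srsf1 (4476), Hnrnpa1 (4381) and Rbfox2 (4150), and lowest for Mbnl1 (92.3), Mbnl2 (167) and Khdrbs2 (167). Within families, Rbfox2 stood above Rbfox1 (1142) and Rbfox3 (562), the last of which encodes the neuronal antigen NeuN. Nova2, the NOVA protein that predominates in mouse neocortex, had 1915 in control against 344 for Nova1. Elavl3 (3604) was above its neuronal relatives Elavl4 (1514) and Elavl2 (1280) and above the widely expressed Elavl1 (708), which encodes HuR. Ptbp2 (1965) and Ptbp1 (1490) were within 1.5-fold of each other per kb of exon. These levels divide by the summed exon length of the annotation, which understates genes with long, rarely used exons.

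**Figure D1:**
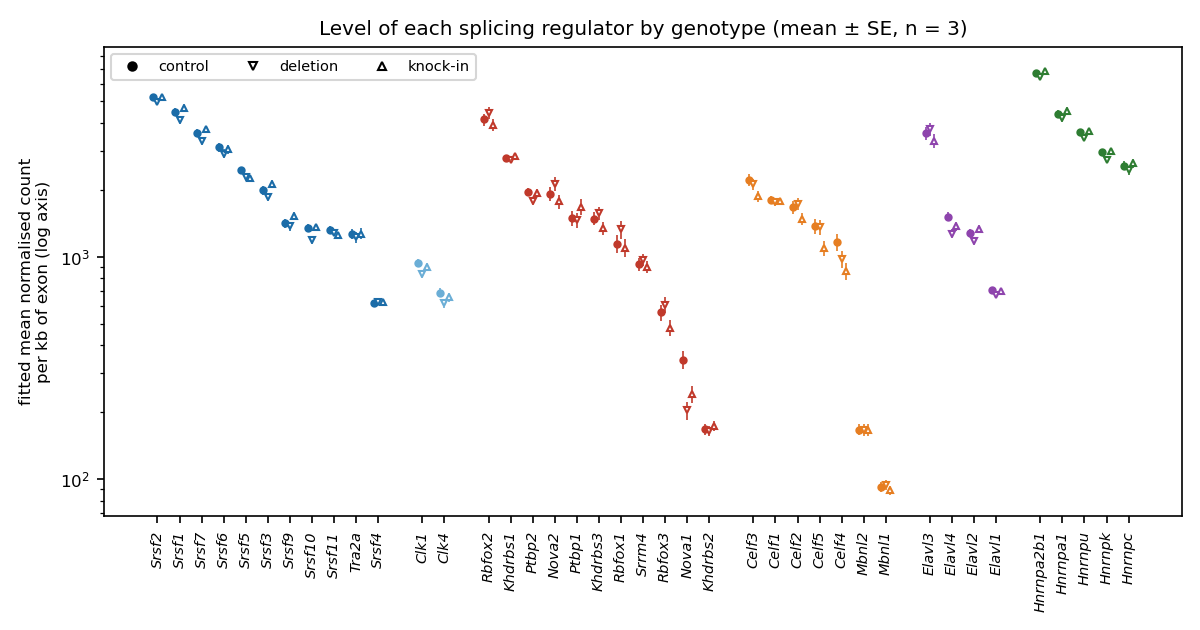
Fitted mean normalised count per kb of exon (log axis) of the 40 splicing regulators in control (filled circles), deletion (downward triangles) and knock-in (upward triangles), with bars for ± SE (n = 3 libraries per genotype) and colours for role groups. The SE rests on a fitted spread shared by the genotypes. The 3 genotypes lie close together for most genes, and Nova1 stands apart with 344 in control, 204 in deletion and 241 in knock-in cortex.

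Spread between libraries, as fitted by the authors' model and carried in the deposited SEs, differed by role. The coefficient of variation between libraries of a genotype ran from 4.72% for Srsf4 to 15.9% for Rbfox1, with a median of 7.87% over the 40 genes. Its median was 5.60% for the hnRNPs, 6.75% for the SR proteins, 7.45% for the kinases, 7.56% for the ELAVL proteins, 10.1% for the CELF and MBNL proteins and 11.6% for the neuronal regulators.

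In the deletion 1 of the 40 regulators was called, Nova1, at a lower level than in control. This compares with 0.976% of the 18952 genes tested that were called in either direction and 0.475% that were called lower. A further 3 regulators, Elavl4, Srsf10 and Clk1, had an unadjusted p below 0.05, which makes 4 in all, beside 9.5% of all genes. Of the 40 effects, 30 lay below control (29 after centring on the median of all genes) and 10 above, with a median of -0.05 and a range from -0.76 to 0.22. Over all genes tested the median was -0.01 and 51.7% lay below control, and among the 6303 genes at or above the level of the lowest regulator 57.4% lay below. In the knock-in 0 of the 40 were called by the same Wald test, with 0.137% of the 21222 genes tested called, and 4 had an unadjusted p below 0.05, beside 6.92% of all genes. These 4 were Nova1, Celf4, Celf5 and Celf3. The knock-in effects lay below control for 23 (25 after centring) and above for 17 regulators, with a median of -0.02 and a range from -0.51 to 0.17. Over all genes the knock-in median was 0.00 and 49.0% lay below.

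**Figure D2:**
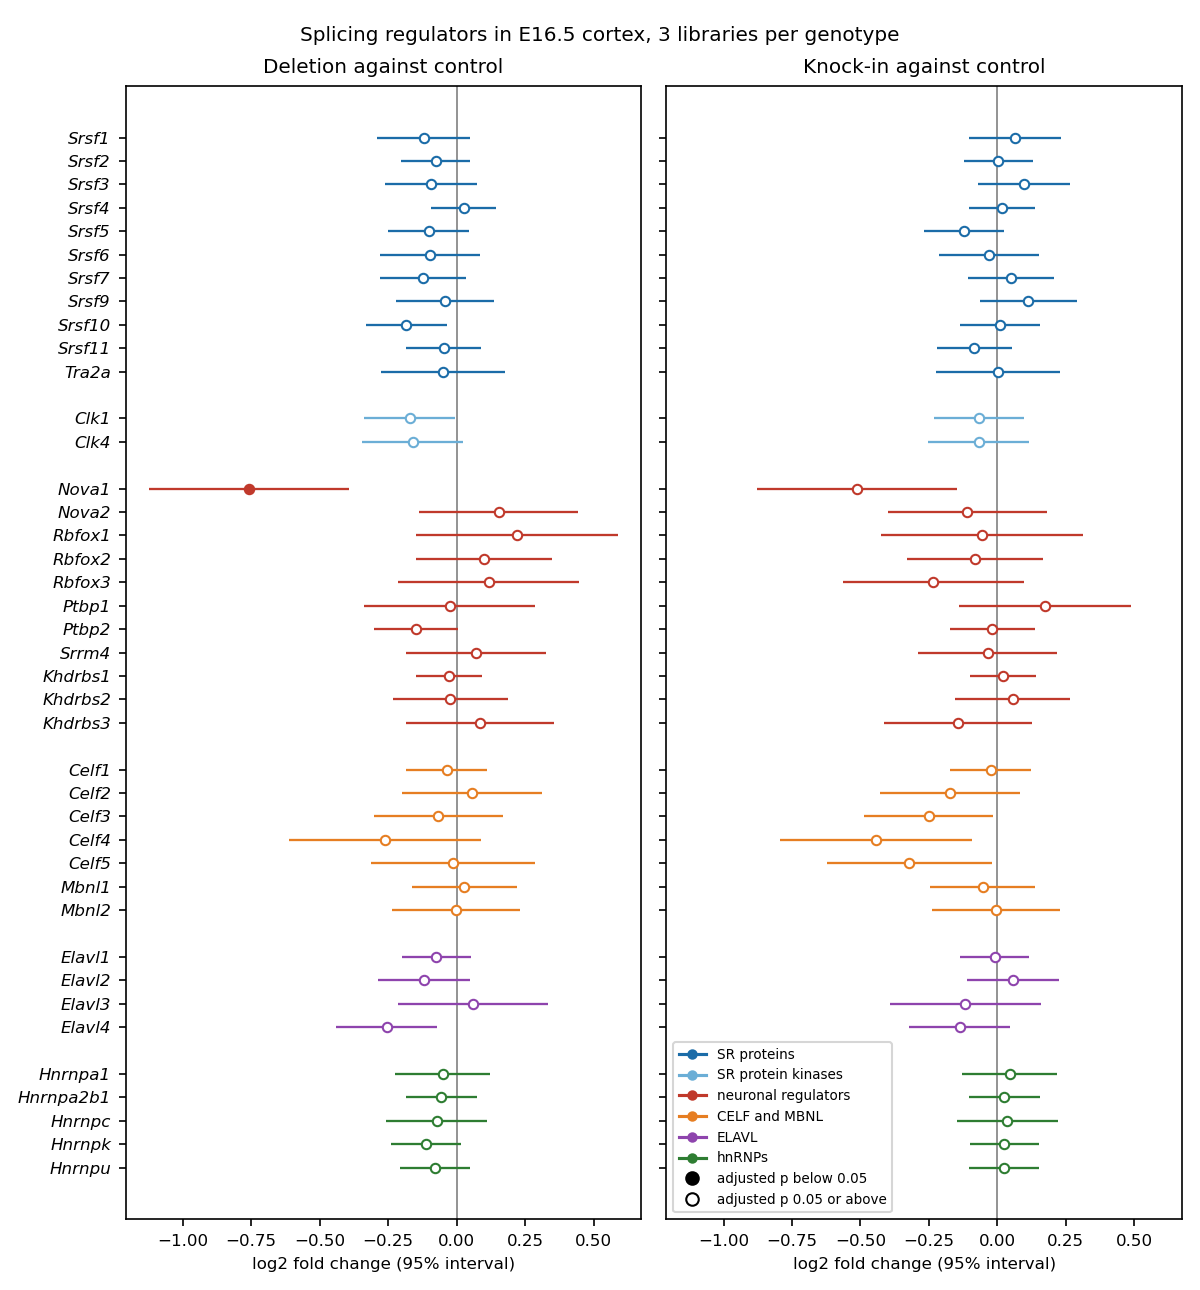
Log2 fold change against control of the 40 regulators in the deletion (left) and the knock-in (right), with 95% intervals (3 libraries per genotype) and colours for role groups. Filled points passed an adjusted p of 0.05, which Nova1 in the deletion alone did at -0.76, and most intervals cross 0.

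The 95% intervals give the precision of each of the 40 effects. They hold for single genes, are not adjusted for the number of genes, and rest on the fitted spread. In the deletion the 95% interval stayed within 1.5-fold of control in either direction for 37 of the 40, the exceptions being Nova1, Rbfox1 and Celf4. In the knock-in it did so for 37 as well, with Nova1, Celf4 and Celf5 outside. Within 1.25-fold lay 26 of the deletion intervals and 28 of the knock-in intervals.

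Nova1 (ENSMUSG00000021047, chr12:46694517-46818929, minus strand, mm10) encodes a KH-domain RNA-binding protein of neurons that promotes or represses exons according to where it binds around them. Its fitted mean was 3012 ± 274 normalised counts in control (SE, n = 3), 1781 ± 163 in deletion and 2111 ± 193 in knock-in cortex. The deletion mean was the lowest of the 3 genotypes and the control mean the highest. Nova1 fell by 0.76 on the log2 scale in the deletion (SE 0.19, Wald test, adjusted p = 0.0110), to 59.1% of the control level. The knock-in effect was -0.51 (SE 0.19, adjusted p = 0.393), at 70.1% of the control level, and was not called. The knock-in minus deletion difference was 0.25 (SE 0.26, or SE 0.19 and adjusted p = 0.676 without the shared control), so the deletion and the knock-in were not shown to differ. In bulk tissue, fewer cells that express Nova1 and less Nova1 RNA per cell cannot be told apart.

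Other deposited values of Nova1 disagree with these, and only those of Nova1 and Celf4 do so among the 40. The authors' deposited table gives a log2 fold change of -1.76 for Nova1 in the deletion, which is lower by 1 than the product of its own statistic and SE. For the knock-in the authors' deposited table gives 1.51 with an adjusted p of 3.78e-04, although the statistic beside it is -2.76. The authors' deposited shorter lists give that statistic as 2.76, without the minus sign. The deposited knock-in p-value of Nova1, and that of Celf4, was 1000 times smaller than the statistic gives.

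The SEs themselves offer a check, since the squared SE of a comparison holds a term that grows as the genotype mean falls, and the control and the spread are common to both comparisons. For 6417 genes with a mean of at least 50 and effects that differ by more than 0.15, the observed difference between the squared SEs was 1.02 times that expected from the effects (2.5th to 97.5th percentile 1.01 to 1.03). Among the 18 regulators that meet this rule it was between 1.01 and 1.03, Nova1 included at effects of -0.76 and -0.51. With the knock-in at 0.51, as in the shorter lists, the expected difference was 4.85 times that observed. With both deposited fold changes it was 20.4 times that observed. The effects of -0.76 and -0.51 are those used throughout.

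**Figure D3:**
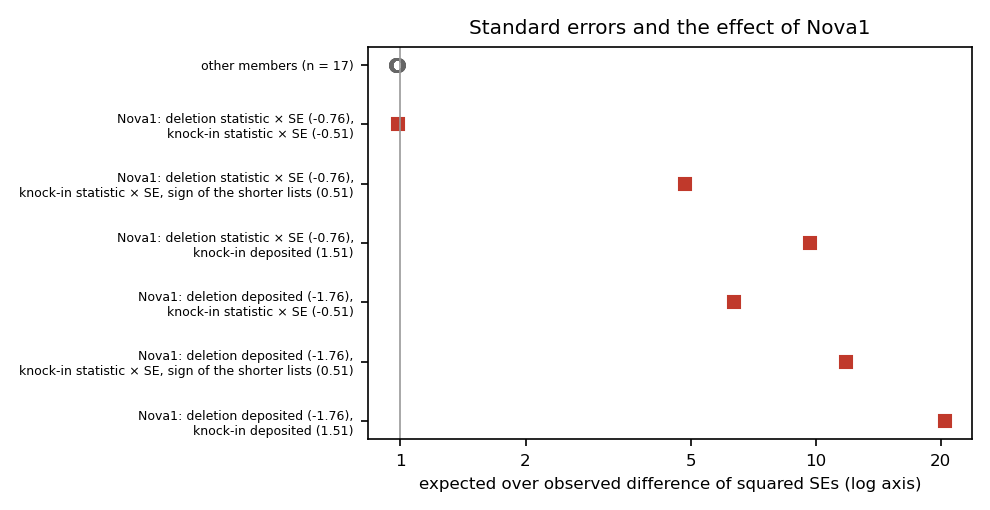
Ratio of the expected to the observed difference between the squared SEs of the deletion and knock-in comparisons (log axis), for 17 other regulators (circles) and for Nova1 under each pairing of the deposited or recomputed effects (squares). The pair -0.76 and -0.51 lies at 0.984 beside the other regulators, and every other pairing lies between 4.85 and 20.4.

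The other neuronal regulators were not called in either genotype. Nova2, at 16033 ± 1160 normalised counts in control, 17835 ± 1290 in deletion and 14857 ± 1075 in knock-in cortex, had effects of 0.15 (SE 0.15) and -0.11 (SE 0.15). Rbfox1, Rbfox2 and Rbfox3, which bind intronic elements beside neuronal and muscle exons, had deletion effects of 0.22 (SE 0.19), 0.10 (SE 0.13) and 0.12 (SE 0.17). Their knock-in effects were -0.06 (SE 0.19), -0.08 (SE 0.13) and -0.23 (SE 0.17). The 3 RBFOX genes and Nova2 were therefore all above control in the deletion and below it in the knock-in, each by less than 2 SE. Rbfox1 is the single regulator of the 40 on chromosome 16, where it spans 5885355 to 7411526 (mm10).

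Ptbp1, which represses neuronal exons in progenitors, had fitted means of 7063 ± 553 in control, 6939 ± 544 in deletion and 7965 ± 624 in knock-in cortex, with effects of -0.03 (SE 0.16) and 0.17 (SE 0.16). Its neuronal paralogue Ptbp2 had 18033 ± 698, 16273 ± 631 and 17797 ± 689. The Ptbp2 effect was -0.15 in the deletion (SE 0.08, adjusted p = 0.565), against a knock-in effect of -0.02 (SE 0.08). Neither the progenitor form nor the neuronal form was called. Srrm4, the activator of neural microexons, was at 0.07 (SE 0.13) and -0.04 (SE 0.13). Khdrbs1, Khdrbs2 and Khdrbs3, STAR-family proteins that act among others on neurexin exons, ranged from -0.03 to 0.09 in the deletion and from -0.14 to 0.06 in the knock-in.

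Of the SR proteins, 0 of 11 were called in either genotype. In the deletion 10 of the 11 effects were below control, with a median of -0.09 and a range from -0.18 to 0.03, Srsf4 being the exception at 0.03. In the knock-in 3 of the 11 were below (5 after centring), with a median of 0.01. Srsf10, whose product activates or represses splicing according to its phosphorylation, had a fitted mean of 9441 ± 347 in control. It had 8312 ± 306 in deletion and 9508 ± 349 in knock-in cortex. Its deletion effect of -0.18 (SE 0.08, adjusted p = 0.314) was the largest of the SR proteins, and its knock-in effect was 0.01 (SE 0.07). Srsf7, a shuttling SR protein with a zinc knuckle, had 12853 ± 505, 11819 ± 465 and 13293 ± 522, with effects of -0.12 (SE 0.08, adjusted p = 0.703) and 0.05 (SE 0.08). Srsf5 was below control in both genotypes, at -0.10 (SE 0.08) and -0.12 (SE 0.08, adjusted p = 0.787).

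The other SR proteins had deletion SEs from 0.06 (Srsf2 and Srsf4) to 0.12 (Tra2a). Srsf1, the founding member of the family, had means of 25559 ± 1083, 23521 ± 997 and 26723 ± 1132 in control, deletion and knock-in. Srsf3, the smallest SR protein, had 15717 ± 662, 14742 ± 621 and 16810 ± 708. Both were thus lowest in the deletion and highest in the knock-in, with effects of -0.12 and 0.06 (each SE 0.09) for Srsf1 and of -0.09 and 0.10 (each SE 0.09) for Srsf3. Srsf2, Srsf6, Srsf9 and Srsf11 had deletion effects from -0.10 to -0.04 and knock-in effects from -0.08 to 0.11. Tra2a, which binds purine-rich enhancers, was at -0.05 (SE 0.12) and 0.00 (SE 0.12). Its paralogue Tra2b, on chromosome 16, had a deletion effect of -0.16 (SE 0.09, adjusted p = 0.577) and a knock-in effect of 0.07 (SE 0.09, adjusted p = 0.917).

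Clk1 and Clk4, which encode nuclear kinases of SR proteins, lay below control in both genotypes without being called. Clk1 had fitted means of 7652 ± 317 in control, 6794 ± 281 in deletion and 7306 ± 302 in knock-in cortex. Its effects were -0.17 (SE 0.08, adjusted p = 0.493) and -0.07 (SE 0.08). Clk4 had 4002 ± 185, 3582 ± 166 and 3815 ± 176, with effects of -0.16 (SE 0.09, adjusted p = 0.635) and -0.07 (SE 0.09).

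CELF and MBNL proteins, which oppose each other on many developmentally regulated exons, gave the lowest role-group median in the knock-in. All 7 lay below control there, with a median of -0.17, and 0 were called by the Wald test, with 3 at an unadjusted p below 0.05. Of all genes tested in the knock-in, 49.0% lay below control and 6.92% had an unadjusted p below 0.05. Of the lists described below, 15 of 16 neuron markers and 17 of 20 other SR-related proteins and kinases also lay below control there, against 8 of 32 core spliceosome genes. In the deletion 5 of the 7 CELF and MBNL genes lay below (4 after centring), with a median of -0.01. Celf4, a neuronal CELF protein, had fitted means of 10032 ± 879 in control, 8371 ± 734 in deletion and 7385 ± 648 in knock-in cortex. Its knock-in effect was -0.44 (SE 0.18, adjusted p = 0.518) at 73.6% of control, and its deletion effect was -0.26 (SE 0.18, adjusted p = 0.724). The authors' deposited table gives Celf4 an adjusted p of 5.00e-04 in the knock-in, from the p-value that is 1000 times smaller than its statistic of -2.47 yields.

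Celf5, enriched in brain, had 9128 ± 685 normalised counts in control, 9038 ± 678 in deletion and 7305 ± 548 in knock-in cortex. The knock-in effect was -0.32 (SE 0.15, adjusted p = 0.662) and the deletion effect -0.01 (SE 0.15), and neither these nor their difference was called. Celf3, another brain-enriched member, had 12160 ± 714, 11610 ± 682 and 10222 ± 601, with a deletion effect of -0.07 (SE 0.12) and a knock-in effect of -0.25 (SE 0.12, adjusted p = 0.670). Celf2 followed with a knock-in effect of -0.17 (SE 0.13, adjusted p = 0.831) and a deletion effect of 0.06 (SE 0.13). The widely expressed Celf1, at -0.04 and -0.03 (each SE 0.07), and Mbnl1 and Mbnl2 had effects between -0.05 and 0.03 in both genotypes.

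Among the ELAVL proteins, which bind AU-rich RNA and steer both splicing and mRNA stability, 0 of 4 were called. Elavl4, the neuronal HuD, had fitted means of 8154 ± 376 in control, 6836 ± 315 in deletion and 7415 ± 342 in knock-in cortex. Its deletion effect was -0.25 (SE 0.09, adjusted p = 0.220) at 83.8% of control, the smallest p after Nova1, and its knock-in effect was -0.14 (SE 0.09, adjusted p = 0.807). Elavl2 had 10637 ± 447, 9801 ± 412 and 11058 ± 465, with effects of -0.12 and 0.06 (each SE 0.09). Elavl3 was at 0.06 and -0.12 (each SE 0.14), and Elavl1 at -0.07 and -0.01 (each SE 0.06).

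All 5 hnRNPs lay slightly below control in the deletion and slightly above it in the knock-in, and 0 were called. The deletion effects ran from -0.11 to -0.05 with a median of -0.07, and the knock-in effects from 0.02 to 0.04 with a median of 0.03. Hnrnpk, a KH-domain protein that binds C-rich RNA, had 19050 ± 608 in control, 17622 ± 562 in deletion and 19393 ± 618 in knock-in cortex. Its effects were -0.11 (SE 0.07, adjusted p = 0.627) and 0.03 (SE 0.07). Hnrnpa2b1 and Hnrnpa1, silencer-binding proteins, were at -0.06 (SE 0.07) and -0.05 (SE 0.09) in the deletion. Hnrnpc, which binds uridine tracts, was at -0.07 (SE 0.09), and Hnrnpu, a chromatin- and RNA-bound protein, at -0.08 (SE 0.07).

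The SR and hnRNP values carry a limit of counting. Annotated pseudogenes at least 95% identical over at least 200 bases were found for 9 of the 40 genes, and the labels do not say how reads matching both were counted. The 9 pseudogenes of Hnrnpa1 together had 271% of the mean count of Hnrnpa1 itself, and the 2 of Hnrnpk had 106%. The share was 34.4% for Srsf5, 32.1% for Hnrnpc, 25.3% for Srsf3, 12.2% for Srsf10, 8.35% for Ptbp1, 2.20% for Hnrnpa2b1 and 1.42% for Khdrbs1. The levels of these 9 genes are uncertain for this reason, to a degree that was not tested. Nova1 and the CELF, MBNL and ELAVL genes had 0 such pseudogenes. Exons of 13 regulators, Celf2, Celf3, Celf5 and Nova2 among them but neither Nova1 nor Celf4, overlap a gene on the opposite strand, and the labels do not say whether counting used strand.

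The difference between the altered genotypes, knock-in minus deletion, was called for 0 of the 40 regulators, as for all but 0.00528% of the 18928 genes tested in both. With the SE of both comparisons summed, 0 had an unadjusted p below 0.05, beside 2.0% of all genes. That SE counts the control libraries in both terms. With an SE rebuilt from the fitted means and spread, which leaves the control out, 8 of the 40 had an unadjusted p below 0.05, beside 10.2% of all genes, and 0 were called, beside 0.037%. The rebuilt SE was chosen after seeing the data, and the share of all genes includes genes at lower levels than the regulators. No result about the regulators is therefore drawn from these shares. The smallest adjusted p with the rebuilt SE was 0.324. By direction, 24 differences were above 0 and 16 below, with a median of 0.06 against 0.01 over all genes tested.

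The 8 were Srsf10, Srsf3, Srsf1, Hnrnpk, Srsf7, Rbfox3, Elavl2 and Celf5, given here with the rebuilt SE. Differences above 0 were 0.19 (SE 0.08, adjusted p = 0.324) for Srsf10, 0.19 (SE 0.09, adjusted p = 0.439) for Srsf3, 0.18 (SE 0.09, adjusted p = 0.451) for Srsf1, 0.14 (SE 0.07, adjusted p = 0.451) for Hnrnpk, 0.17 (SE 0.08, adjusted p = 0.451) for Srsf7 and 0.17 (SE 0.09, adjusted p = 0.467) for Elavl2. Differences below 0 were -0.35 (SE 0.17, adjusted p = 0.457) for Rbfox3 and -0.31 (SE 0.15, adjusted p = 0.470) for Celf5. By role, the differences of 8 of 11 SR proteins, both kinases and 5 of 5 hnRNPs lay above 0, and those of 6 of 7 CELF and MBNL genes below 0, with 0 called in any role. Of the lists described below, the other SR-related proteins and kinases split evenly, with 10 above 0 and 10 below. Differences above 0 were also found for 18 of 20 other hnRNPs, 27 of 32 core spliceosome genes and 20 of 20 cell cycle markers. Those of 15 of 16 neuron markers lay below 0. The directions were thus not particular to these role groups. Of all genes tested 47.8% had a difference below 0, and of those at or above the level of the lowest regulator 44.9%. The Rbfox1, Rbfox2 and Nova2 differences, -0.28, -0.18 and -0.26, were also below 0.

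**Figure D4:**
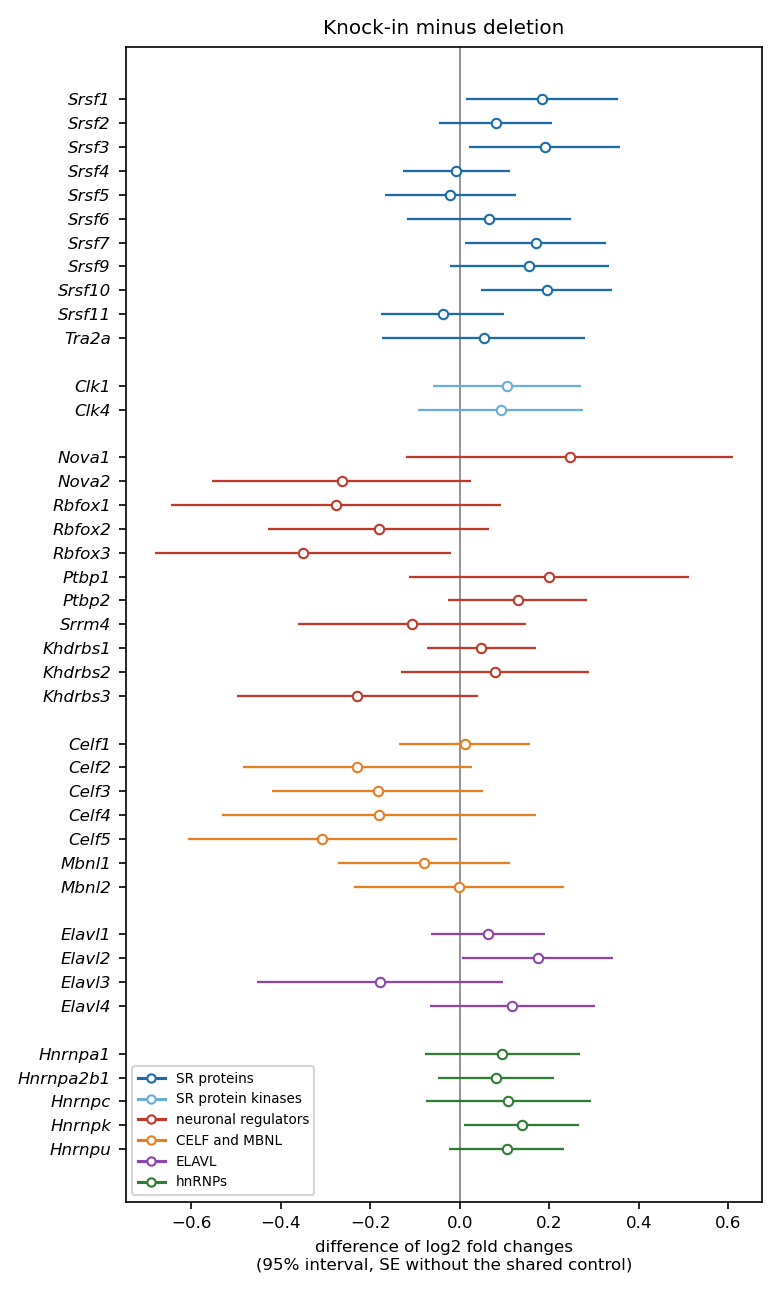
Knock-in minus deletion difference of the log2 fold changes of the 40 regulators, with 95% intervals from the rebuilt SE that leaves out the shared control. SR proteins and hnRNPs lie mostly above 0 and CELF and RBFOX genes below, 8 intervals leave out 0, and 0 genes were called after adjustment over all genes.

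The rest of the splicing machinery showed small effects as well. Of 20 other SR-related proteins and kinases, 20 lay below control in the deletion (median -0.08), as did 17 under the knock-in (median -0.10), with 0 called in either and 2 and 0 at an unadjusted p below 0.05. Those 2 were Rbm39, a coactivator with an RS domain, at -0.20 (SE 0.08, adjusted p = 0.290), and Pnn, a nuclear speckle protein, at -0.14 (SE 0.06, adjusted p = 0.340). In the knock-in the smallest p-values of that list were those of the SR kinase Srpk2 at -0.16 (SE 0.09, adjusted p = 0.751) and of Srsf12 at -0.38 (SE 0.21, adjusted p = 0.751). Of 20 other hnRNPs, 12 had a negative deletion effect and 6 a negative knock-in effect. Hnrnpa3 was at -0.20 (SE 0.08, adjusted p = 0.254) and -0.13 (SE 0.08), and Hnrnpa0 was above control in both, at 0.15 (SE 0.07, adjusted p = 0.429) and 0.23 (SE 0.07, adjusted p = 0.186). None of these was called.

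Among other tissue-linked regulators, 12 of 18 tested had a negative deletion effect and 10 of 19 a negative knock-in effect, with 0 called. Msi2 and Qk, RNA-binding proteins of progenitors and glia, were at -0.23 (SE 0.09, adjusted p = 0.309) and -0.24 (SE 0.10, adjusted p = 0.314) in the deletion. Rbm5 was at -0.18 (SE 0.10, adjusted p = 0.746) and Srrm3, the relative of Srrm4, at -0.30 (SE 0.18, adjusted p = 0.782) in the knock-in. Of 32 core spliceosome genes, 19 had a negative deletion effect (median -0.03) and 8 a negative knock-in effect (median 0.04), with 0 called. Snrpb and Snrpe, subunits of the Sm ring, were at 0.36 (SE 0.11, adjusted p = 0.244) and 0.28 (SE 0.13, adjusted p = 0.654) in the knock-in, and Prpf3 and Cdc5l at -0.16 (SE 0.08, adjusted p = 0.498) and -0.14 (SE 0.08, adjusted p = 0.579) in the deletion. Of 16 nonsense-mediated decay genes, 10 and 8 lay below control, with 0 called. Upf3b was at -0.21 (SE 0.10, adjusted p = 0.495) and -0.17 (SE 0.10, adjusted p = 0.790), Casc3 at -0.13 (SE 0.07, adjusted p = 0.571) in the deletion, and Magoh at 0.18 (SE 0.12, adjusted p = 0.805) in the knock-in.

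Markers of cell types moved beside these effects. The tissue carried cortical markers, with Emx1, Tbr1, Neurod6 and the others of 8 genes used at mean normalised counts of 2223 to 35817 and summed levels of 116% (deletion) and 108% (knock-in) of control. Neuron markers reached 70873, although the labels name neural progenitors as the cell type. In the knock-in, 15 of 16 neuron markers lay below control (0 called) with a summed level of 88.5% of control, while 20 of 20 cell cycle, 11 of 11 radial glia and 11 of 11 intermediate progenitor markers lay above (0 called), with sums of 115%, 114% and 120%. In the deletion the neuron sum was 103%, with 8 of 16 below, and the cell cycle, radial glia and intermediate progenitor sums were 83.9%, 91.3% and 90.9%, with 20 of 20, 8 of 11 and 11 of 11 below (0 called). These lists thus lay on the side of the SR proteins and hnRNPs in the deletion and the neuron list on the side of the CELF genes in the knock-in, and their part in those values was not tested.

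Interneuron markers lay below control in both genotypes, as Nova1 did. Their summed level was 75.2% of control in the deletion, with 13 of 16 below and 6 called, Dlx1, Dlx2, Dlx5, Dlx6, Dlx6os1 and Sp8. It was 75.6% in the knock-in, with 15 of 16 below and 0 called. Markers of striatum and subpallium summed to 71.0% and 71.3%, with 14 of 15 below in each and 2 and 0 called. Meningeal markers summed to 188% and 142% of control (5 and 0 of 11 called), endothelial and pericyte markers to 141% and 122% (2 and 0 of 12 called), microglial markers to 128% and 120% (0 of 12 called in both) and red cell markers to 84.0% and 117% (1 of 10 and 0 of 11 tested called, Bpgm lower in the deletion). No marker was at 0 over the libraries, the lowest mean being 14.7 normalised counts in the red cell list. Centring on the median of all genes moved these marker counts by at most 1. The part of these lists in the Nova1 values was not tested.

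**Figure D5:**
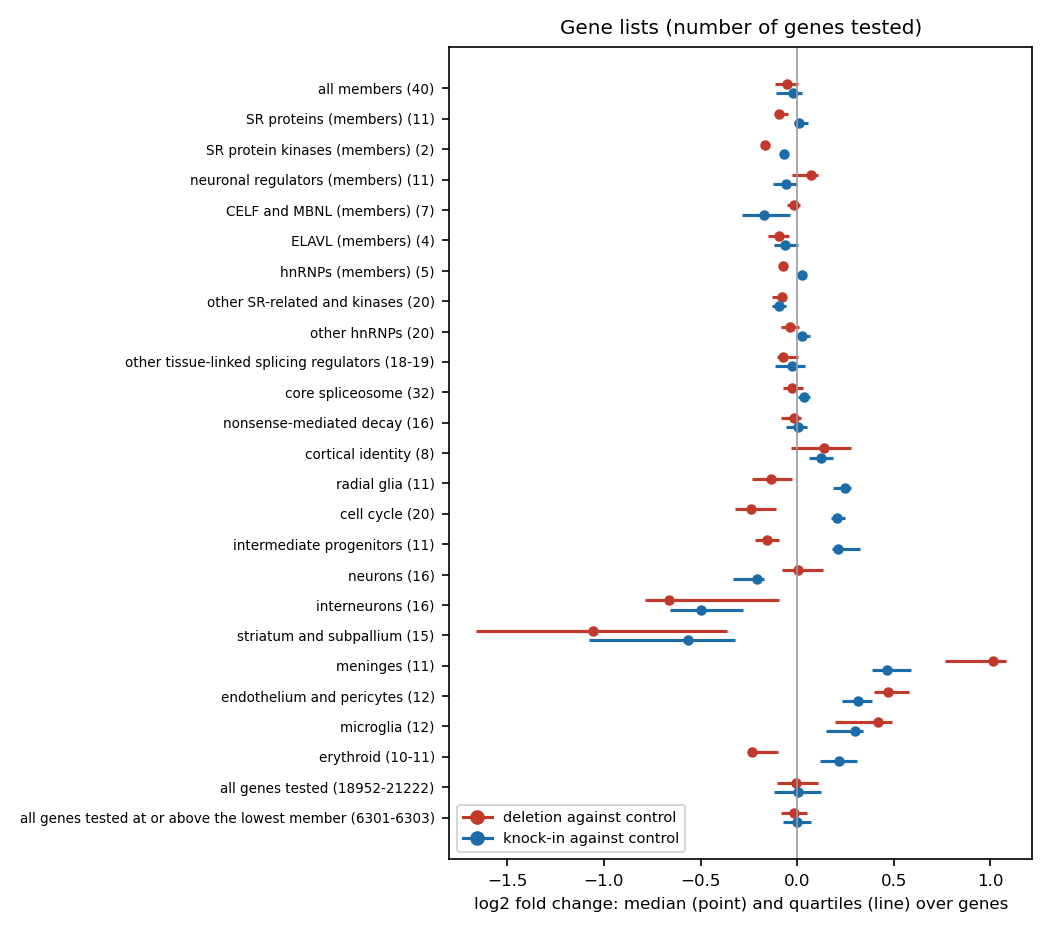
Median (point) and quartiles (line) of the log2 fold changes over the genes of each list, in the deletion (red) and the knock-in (blue), with the number of genes tested in parentheses. Medians of the splicing lists stay within 0.2 of 0, whereas interneuron and striatal medians lie below and meningeal medians above, at -0.66, -1.06 and 1.01 in the deletion.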

How the data were processed

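RNA from E16.5 cortex was sequenced in 9 libraries, 3 per genotype. Each library used 50 ng of total RNA and an mRNA capture kit, per the labels' protocols. STAR 2.7.9a, Bowtie2 2.4.4, cutadapt, mm9 and mm10 are named, without roles, in the submitters' processing notes. Per the file headers, the authors deposited DESeq2 comparisons of each altered genotype with control: log2 fold changes and SEs, a Wald score, p-values with adjusted p-values, and a mean normalised count over all libraries (a signal). The deposited columns headed FPKM were equal, for 235530 of 235530 and 242196 of 242196 values (tolerance 1e-09), to that mean times draws of R's normal generator (mean 1, SD 0.1, seed 42). They hold no library measurement and were not used, so values, depth and leave-one-out results per library are not reported, and precision rests on the deposited SEs. These p-values rest on a spread between libraries fitted by the authors' model, with 3 libraries per genotype, and not on the observed spread within each genotype.

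The deposited fold change differed from statistic times SE for 22 deletion and 25 knock-in genes (relative tolerance 1e-06), and the p from that of the statistic for 4 and 930 (tolerance 1e-04 on log10 p). Effects were therefore taken as statistic times SE, with a 2-sided normal p and Benjamini-Hochberg adjustment over the genes with a deposited adjusted p (18952, 21222 and 18928 in both). Differences of effects used the root of the summed squared SEs. Genotype means and spread were solved from the deposited mean, effects and SEs. Effects were also simulated for all genes tested, with normal errors of the deposited SEs taken as exact. No counts were simulated, so the assumptions of the test were built in. Under these the deletion recovered 57.7% of 71 genes changed 1.5-fold and 84.8% of 66 changed 2-fold. The knock-in recovered 69.0% of 58 and 69.1% of 68. These shares cover genes of all levels and do not describe the regulators, whose median SE was 0.0938 in both comparisons. Recovery for the regulators alone was not tested. Positions and exon lengths came from GENCODE (mm10), pseudogenes from blastn 2.17.0 and promoters from RefSeq (GRCm38.p6). Python 3.11.15, numpy 2.4.6, pandas 2.3.3, scipy 1.17.1, matplotlib 3.10.9 and R 4.3.3 were used.

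The members and lists were chosen with earlier results of these data known. Named genes were those called, the 8 regulators with the smallest p per comparison and for the difference, those whose deposited columns disagree, Tra2b, and of other splicing lists the called genes and the 2 with the smallest p. Other genes are given within families. One gene of the planned cortical marker list is not reported here and was left out of that list.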

Additional observations from a re-analysis of the deposited data

How the results depend on the processing

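Alternatives were other thresholds, other sets of genes to adjust over, a baseMean of at least 50, the deposited adjusted p or fold change, centring on the median of all genes and other SEs of the difference, of which the rebuilt SE and the shorter-list statistic of Nova1 were chosen after seeing the data. The count of regulators called in the deletion went from 1 to 0 at an adjusted p below 0.01, because Nova1 lies at 0.0110. In the knock-in it went from 0 to 2 with the deposited adjusted p, through Nova1 (3.78e-04) and Celf4 (5.00e-04), whose deposited p-values are 1000 times smaller than their statistics give. The difference kept 0 calls under every alternative run, also with an SE without the shared control under equal spread. The medians over the 40 kept their sign under every alternative run. Of 241 values of single regulators under alternatives, 234 kept direction and side of the threshold. Most of them could hardly do otherwise, so this count is no measure of robustness. The deposited fold change equals statistic times SE for all regulators but Nova1. The deposited p equals that of the statistic for all but Nova1 and Celf4 in the knock-in. Reversed were Nova1 in the knock-in, at 1.51 with the deposited fold change and 0.51 with the statistic of the shorter lists, and 3 effects near 0 under centring, which moves effects by 0.01 or less: Mbnl2 in the deletion (0.00412), Srsf2 (-0.000439) and Tra2a (-0.000845) in the knock-in. Centring also leaves 5 instead of 3 SR proteins below control in the knock-in and 4 instead of 5 CELF and MBNL genes below it in the deletion. No paired analysis was possible because the comparison tables hold no values per library, and leaving out a library was not run for the same reason.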
